A study of Mus musculus with 12 samples.

Results

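The 7 genes described here, Cttn, Ppfia1, Fadd, Ano1, Gm26793, Bc1 and Ccnd1, lie beside Shank2 in the last stretch of mouse chromosome 7, between Shank2 and the chromosome's end. They are 7 of the 19312 genes measured and 7 of the 11 measured genes in that stretch, with Shank2 itself left out. They were selected on their position together with their KO against WT differences in these same mice, so those differences are described without a test and support nothing by themselves. Messenger RNA was sequenced from 12 male mice of strain C57BL/6N at postnatal day 25, 3 in each of 4 groups. WT-Veh and WT-Mem were wild-type mice, and KO-Veh and KO-Mem were Shank2-mutant mice of the line B6N.129S4-Shank2tm1Mgle/CsbdJ, in which exons 6 and 7 of Shank2 are deleted on both chromosomes in every cell. The Mem groups received oral memantine, a blocker of NMDA-type glutamate receptors, at 20 mg/kg in 0.1% saccharin, 2 doses a day from postnatal day 7 to 21. The Veh groups received the saccharin solution alone, so that no group was left without handling. Each library came from the brain of 1 mouse. The labels call the tissue whole brain and the methods call it forebrain without the cerebellum and the brain stem beneath it.

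A targeted allele is made in a single stem cell clone and then bred on, and chromosome segments next to it are inherited with it more often than distant ones. Mutant and wild-type mice of such a line can therefore differ in the strain of origin of the neighbouring genes as well as in the targeted gene. The strain of origin of this stretch was not tested here. The neighbours have unrelated roles. Cttn encodes cortactin, an actin-binding protein that activates the Arp2/3 complex and binds Shank proteins. Ppfia1 encodes liprin-alpha-1, a scaffold of adhesion sites and synapses, Fadd encodes the adaptor that joins death receptors to caspase-8, and Ano1 encodes a chloride channel opened by calcium. Ccnd1 encodes cyclin D1, the partner of the kinases that carry cells through G1. Bc1 is a short noncoding RNA of neurons, made by RNA polymerase III and found in dendrites, where it is known to repress translation. Gm26793 is annotated as an antisense RNA and no role is known for it here.

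The transcripts of both noncoding members are shown because the largest differences below concern them. Bc1 (ENSMUSG00000115783) is a single exon of 168 bases on the plus strand, chr7:144914470-144914637 in GRCm38, as given by GENCODE M21. Capitals mark bases 77 to 128, an A-rich stretch of 52 bases that is 86.5% A and holds a run of 23 A. The libraries were made from RNA caught on poly-T beads, and Bc1 has no poly-A tail added after transcription, and how fully it was caught was not tested.
Bc1: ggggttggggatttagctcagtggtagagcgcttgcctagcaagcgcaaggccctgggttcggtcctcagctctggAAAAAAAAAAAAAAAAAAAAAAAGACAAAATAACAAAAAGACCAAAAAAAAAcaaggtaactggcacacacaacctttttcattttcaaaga
Gm26793 (ENSMUSG00000096999) has 2 exons on the minus strand, of 386 bases (chr7:144897076-144897461) and 2346 bases (chr7:144894560-144896905). The junction is printed with the last 30 bases of exon 1 in lower case (chr7:144897076-144897105) and the first 30 bases of exon 2 in capitals (chr7:144896876-144896905). It belongs to the annotated spliced RNA, and whether reads crossed it was not tested.
Gm26793 junction: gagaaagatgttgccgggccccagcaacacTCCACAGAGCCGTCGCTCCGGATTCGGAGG

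The order along the chromosome, away from the end of Shank2, was as follows. Cttn (ENSMUSG00000031078) starts 11.2 kb beyond Shank2 at 144435733 and ends at 144471009, Ppfia1 (ENSMUSG00000037519) starts 52.3 kb beyond it and spans 144476758 to 144553729. Fadd (ENSMUSG00000031077) spans 144577318 to 144582463 at 152.8 kb, and Ano1 (ENSMUSG00000031075) spans 144588549 to 144751974 at 164.1 kb. After a gap that holds Fgf3 come Gm26793 at 470.1 kb, Bc1 at 490.0 kb and Ccnd1 (ENSMUSG00000070348), which spans 144929931 to 144939925 at 505.4 kb. All are on the minus strand except Bc1. The 4 measured genes of the stretch that are not among the 7 are Fgf3, LTO1, Tpcn2 and Mrgprf.

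Shank2 itself was checked first. Its normalized counts were 7156 to 8548 in the 6 WT mice and 2706 to 3178 in the 6 KO mice, so every library fitted its label, and the log2 difference was -1.45 (SE 0.07) under vehicle and -1.44 (SE 0.08) under memantine (adjusted p = 1.77e-05 and 0.000186, limma). Depth could not be read from the normalized values. The median of each mouse's values near 1 was 0.872 to 1.13, but a window around 1 keeps it there. From 61 to 88 genes were listed at 0 per mouse. Forebrain markers were measured in every mouse, with a summed normalized count of 4 markers from 6015 to 7317. The sum of 3 cerebellar granule cell markers was 32 to 117 in 11 mice and 1044 in KO-Veh replicate 3, where Cbln3 was 745 and Gabra6 was 254. Gabra6 was listed at 0 in at least 1 mouse of each group. Without KO-Veh replicate 3 the vehicle differences of Gm26793, Bc1 and Ccnd1 were 3.59, -1.56 and -0.74 on the log2 scale, against 3.55, -1.42 and -0.75 with it.

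Of the 7 genes, 3 differed between KO and WT mice without overlap under each treatment, namely Gm26793, which was higher in KO mice, and Bc1 and Ccnd1, which were lower. These 3 start 470.1 to 505.4 kb from Shank2, and LTO1, which starts at 490.6 kb between Bc1 and Ccnd1, overlapped between genotypes in both contrasts. The 4 of the 7 genes nearest to Shank2, Cttn, Ppfia1, Fadd and Ano1, overlapped between genotypes under both treatments. Among all genes tested, the groups did not overlap for 20.4% in Veh-K/W (KO-Veh against WT-Veh) and for 26.2% in Mem-K/W (KO-Mem against WT-Mem), but the 7 were selected on these contrasts and nothing is read from the comparison. All 7 passed the filter of a mean value of at least 10 in both contrasts, but Gm26793 passed it only through the KO mice, since its WT means were under 10.

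**Figure D1:**
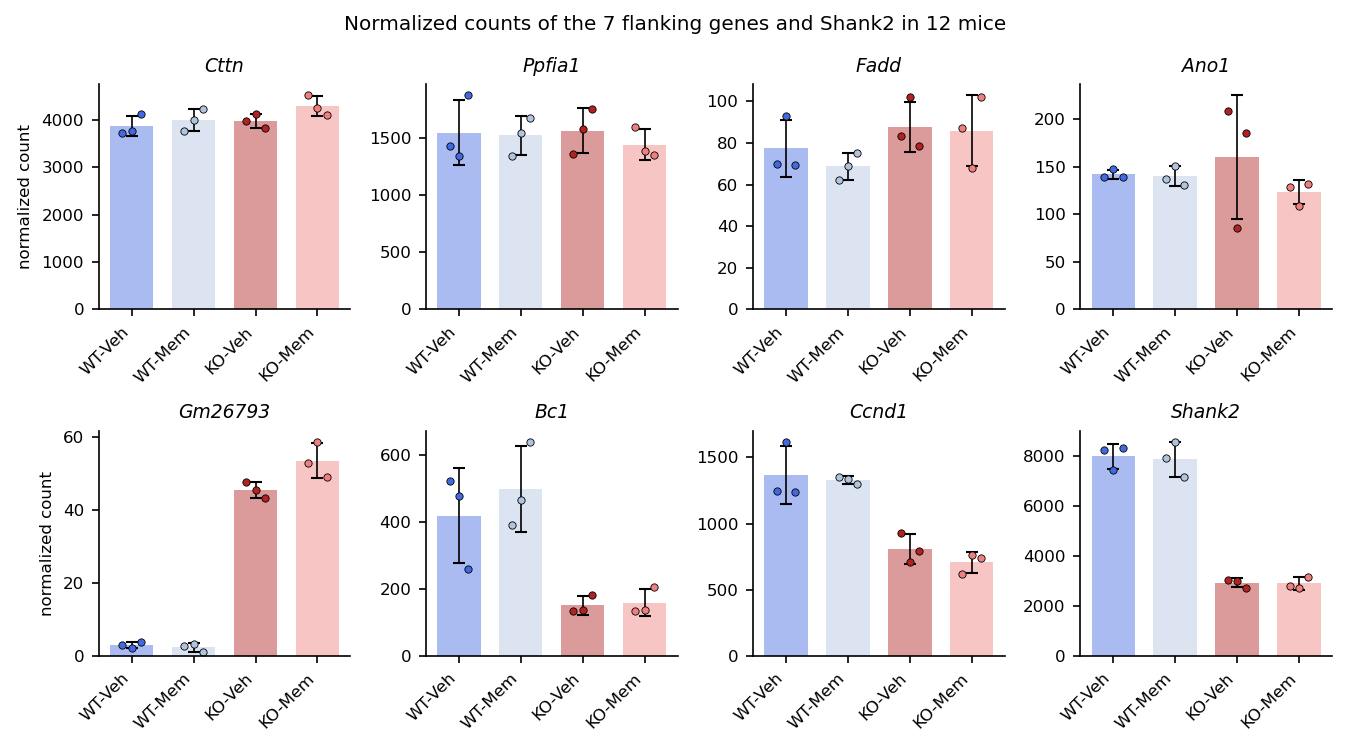
Normalized counts (vertical axes, each from 0) of the 7 genes and of Shank2 in the 4 groups. Points are single mice, bars are means and whiskers are SD over 3 mice. For Gm26793, Bc1, Ccnd1 and Shank2 the KO mice stand apart from the WT mice under both treatments.

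Gm26793 was close to absent in WT mice and present in every KO mouse. Its normalized counts were 3.09, 2.11 and 3.89 in WT-Veh mice, against 47.6, 45.6 and 43.2 in KO-Veh mice. After memantine they were 2.73, 3.27 and 1.02 in WT and 52.8, 58.7 and 49.0 in KO mice. The lowest KO mouse thus lay above 43 and the highest WT mouse below 4, and WT values this low stand for few reads. The group means were 3.03 ± 0.889 (SD, n = 3) in WT-Veh, 45.5 ± 2.24 in KO-Veh, 2.34 ± 1.17 in WT-Mem and 53.5 ± 4.88 in KO-Mem. On the log2(value + 1) scale the difference was 3.55 (SE 0.37), or 11.7-fold, in Veh-K/W, and 4.09 (SE 0.41), or 17.1-fold, in Mem-K/W. These folds depend on the added constant because the WT values are so low: with 5 added in place of 1 the differences were 2.66 and 3.00.

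Fgf15, which encodes a growth factor of early brain development, lies on the opposite strand and overlaps Gm26793. Of the 2702 stretches of 31 bases in the Gm26793 transcript, 701 (25.9%) also occur in the transcripts of Fgf15, read on the opposite strand, and none in another gene. The kit that the labels name, TruSeq RNA v2, does not mark strand, and counting by strand is not stated, so reads of the shared bases cannot be told apart, and Fgf15 was not analysed here.

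Bc1 was lower in all KO mice than in any WT mouse under the same treatment. Its normalized counts were 522, 478 and 259 in WT-Veh mice, against 133, 138 and 183 in KO-Veh mice. After memantine they were 392, 467 and 641 in WT and 135, 137 and 205 in KO mice. The KO mice lay in a narrow range and the WT mice spread widely, and WT-Veh replicate 3 stood closest to the KO mice. Means were 420 ± 141 (SD, n = 3) in WT-Veh, 151 ± 27.9 in KO-Veh, 500 ± 128 in WT-Mem and 159 ± 39.9 in KO-Mem. The log2 difference was -1.42 (SE 0.24), which is 2.67-fold lower, in Veh-K/W and -1.64 (SE 0.21), 3.13-fold lower, in Mem-K/W. Without WT-Veh replicate 3 the first was -1.73. In bulk tissue such as this, fewer cells of a type and less RNA per cell cannot be told apart. Of the 138 stretches of 31 bases in the printed sequence, 58 (42.0%) also occur in transcripts of 19 other genes, so the assignment of reads to Bc1 is uncertain. The gene that shares most of them, Lrrc17, with 52, had values of 1.1 to 10.9 in the 12 mice, far below those of Bc1.

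Ccnd1 was lower in KO mice by a smaller ratio. Its normalized counts were 1247, 1619 and 1237 in WT-Veh mice, against 931, 706 and 792 in KO-Veh mice. After memantine they were 1354, 1340 and 1298 in WT and 618, 760 and 743 in KO mice. No KO mouse exceeded 931 and no WT mouse fell under 1237. Means were 1367 ± 218 (SD, n = 3) and 810 ± 113 under vehicle, 1331 ± 28.8 and 707 ± 77.8 under memantine, for WT and KO mice in that order. The log2 difference was -0.75 (SE 0.13), 1.69-fold lower, in Veh-K/W and -0.92 (SE 0.10), 1.89-fold lower, in Mem-K/W. Ccnd1 runs into LTO1 on the opposite strand: 22.3% of its 31-base stretches occur in LTO1 transcripts and cannot be told apart where strand is not marked. LTO1, whose protein takes part in iron-sulfur protein assembly, had 533 ± 90.8 (SD, n = 3) in WT-Veh, 544 ± 11.8 in KO-Veh, 497 ± 87.3 in WT-Mem and 651 ± 56.1 in KO-Mem. Its log2 difference was 0.04 in Veh-K/W (adjusted p = 0.889, limma) and 0.40 (SE 0.13) in Mem-K/W (adjusted p = 0.141), so its values did not share the direction of Ccnd1.

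Several non-neuronal cell types use cyclin D1, and the summed values of their markers were measured beside it. All 8 endothelial markers had lower means in KO-Veh than in WT-Veh mice, 7 of them with an unadjusted p under 0.05 (median log2 difference -0.30, against 0.0 over all genes), where 14.4% of all genes reached that p. Of the same markers 7 of 8 had lower means in KO-Mem than in WT-Mem mice, but 1 of 8 with an unadjusted p under 0.05 is no more than the 21.0% of all genes (median -0.18). Their summed normalized counts were 6826 to 7671 in WT-Veh, 5395 to 6061 in KO-Veh, 6368 to 6837 in WT-Mem and 5323 to 6302 in KO-Mem mice. The sum of 4 oligodendrocyte precursor markers was 10849 to 12161 in WT-Veh, 9583 to 10282 in KO-Veh, 10932 to 11315 in WT-Mem and 8053 to 9597 in KO-Mem mice, with 3 of 4 markers lower in Veh-K/W and 4 of 4 in Mem-K/W. The sum of 7 mural cell markers was 5004 to 5664, 4090 to 4738, 4563 to 5190 and 3625 to 3883 in the same order, with 7 of 7 lower in Veh-K/W and 5 of 7 in Mem-K/W. None of these 19 markers passed the adjusted threshold and none was at 0 in any mouse. At an unadjusted p under 0.05 (limma) were 2 and 1 of the 4 precursor and 2 and 3 of the 7 mural markers. Lower means were not limited to these cell types. All 4 oligodendrocyte, all 4 microglia and 3 of 4 astrocyte markers were lower in both contrasts. At that p were 4 and 3, 1 and 3, and 1 and 2 of them, beside 14.4% and 21.0% of all genes. Of the neuron, forebrain and choroid plexus markers 3 of 4, 3 of 4 and 4 of 5 were lower in each contrast. At that p were 0 and 1, 1 and 1, and 0 and 1 of these. The cerebellar granule cell markers were higher, 3 of 3 tested in Veh-K/W and 2 of 2 in Mem-K/W. The part of any of these cell types in the difference of Ccnd1 was not tested.

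The other D-type cyclins, which act with the same kinases, did not separate by genotype. Ccnd2 was 2513, 2081 and 2211 in WT-Veh mice, against 2822, 2505 and 2049 in KO-Veh mice, and Ccnd3 was 611, 569 and 716 against 603, 672 and 608. Under memantine Ccnd2 was 2899, 2574 and 2214 in WT mice and 1772, 2006 and 2524 in KO mice, and Ccnd3 was 751, 599 and 671 against 556, 629 and 590. All 4 pairs of groups overlapped.

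The 4 of the 7 genes that lie closest to Shank2 showed differences within the spread of their mice. Cttn had 3730, 3764 and 4113 in WT-Veh, 3967, 4118 and 3822 in KO-Veh, 3760, 3985 and 4218 in WT-Mem and 4517, 4240 and 4100 in KO-Mem mice. Its log2 difference was 0.04 (SE 0.06, 95% interval -0.11 to 0.18) in Veh-K/W and 0.10 (SE 0.07, -0.05 to 0.26) in Mem-K/W, and these intervals are the narrowest of the 7 genes. Cttn, the nearest of the 7 to Shank2, was thus also the one with the smallest room for a difference. Ppfia1 had 1430, 1337 and 1872 in WT-Veh, 1361, 1573 and 1751 in KO-Veh, 1342, 1541 and 1677 in WT-Mem and 1593, 1383 and 1348 in KO-Mem mice. Its log2 differences were 0.02 (SE 0.13) and -0.08 (SE 0.10).

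Fadd and Ano1 were expressed at lower values and were less precisely measured. Fadd had 70.0, 93.2 and 69.3 in WT-Veh, 83.4, 102 and 78.8 in KO-Veh, 62.3, 69.0 and 75.0 in WT-Mem and 87.3, 68.1 and 102 in KO-Mem mice. The log2 difference was 0.19 (SE 0.19, 95% interval -0.24 to 0.61) in Veh-K/W and 0.30 (SE 0.20, -0.15 to 0.75) in Mem-K/W. Ano1 had 139, 147 and 139 in WT-Veh, 208, 85.9 and 185 in KO-Veh, 137, 151 and 131 in WT-Mem and 129, 109 and 132 in KO-Mem mice. The KO-Veh mice lay on both sides of the WT-Veh mice, and the value depended on which of them was left out. The Veh-K/W difference was 0.07 (SE 0.28) with all mice, -0.16 without KO-Veh replicate 1 and -0.08 without KO-Veh replicate 3. It was 0.47 without KO-Veh replicate 2, when both other KO-Veh mice lay above all WT-Veh mice. In Mem-K/W it was -0.18 (SE 0.15). Ano1 shares no 31-base stretch with another gene, while Cttn shares 7.37%, Ppfia1 0.808% and Fadd 8.73% of theirs.

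**Figure D2:**
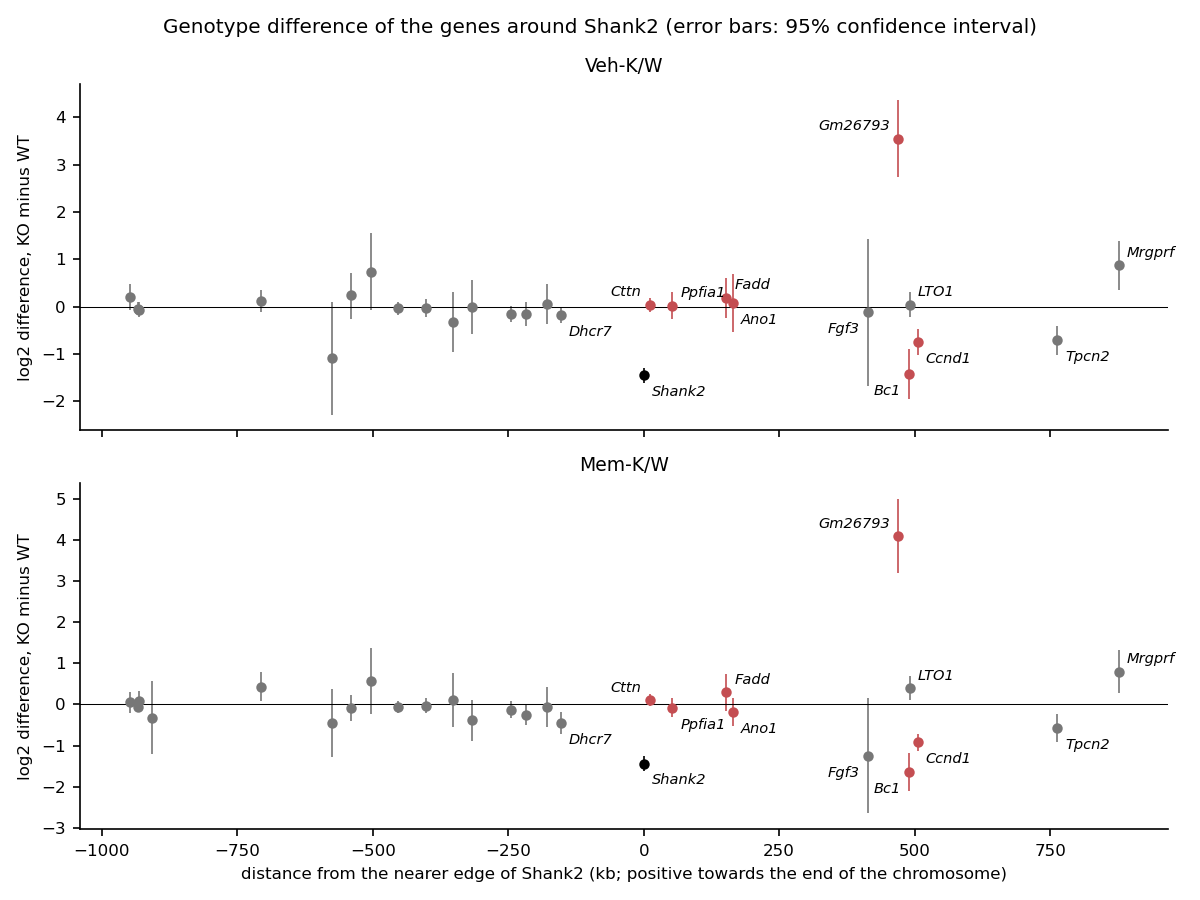
Log2 difference between KO and WT mice (vertical axis) of the tested genes within 1 Mb of Shank2 and of all tested genes beyond it, against distance in kb from its nearer edge (horizontal axis, positive towards the chromosome's end), under vehicle (top) and memantine (bottom). Red points are the 7 genes, black is Shank2, grey the other genes, and bars are 95% confidence intervals. Gm26793, Bc1, Ccnd1, Tpcn2 and Mrgprf, from 470.1 kb outwards, stand away from 0 in both panels, LTO1 in the same stretch lies near 0 in the upper panel, and the 4 red points from 11.2 to 164.1 kb lie near 0.

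How far a difference of this kind reached along the chromosome was read from the genes outside the 7. Tpcn2, which encodes an ion channel of endosomes and lysosomes, begins 762.0 kb from Shank2 and was lower in all KO mice. Its normalized counts were 161, 178 and 153 in WT-Veh, 100, 95.1 and 105 in KO-Veh, 118, 141 and 144 in WT-Mem and 93.4, 88.8 and 87.2 in KO-Mem mice. The log2 difference was -0.71 (SE 0.14, unadjusted p = 0.000424, adjusted p = 0.134, limma) in Veh-K/W and -0.57 (SE 0.16, unadjusted p = 0.00424, adjusted p = 0.108) in Mem-K/W, so neither passed the adjusted threshold. With all 12 mice in a single fit the Mem-K/W adjusted p was 0.039, which is past it, and that for Veh-K/W was 0.182.

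Mrgprf, a receptor gene of the Mas-related family at 876.3 kb, had the opposite sign. Its normalized counts were 33.8, 31.3 and 49.8 in WT-Veh, 61.0, 72.9 and 75.7 in KO-Veh, 29.8, 32.3 and 34.4 in WT-Mem and 62.4, 45.2 and 64.1 in KO-Mem mice, with every KO mouse above every WT mouse of its treatment. The log2 difference was 0.87 (SE 0.23, unadjusted p = 0.0037, adjusted p = 0.186, limma) in Veh-K/W and 0.80 (SE 0.23, unadjusted p = 0.00657, adjusted p = 0.12) in Mem-K/W. Fgf3, a fibroblast growth factor gene that lies between Ano1 and Gm26793, was low and variable, with 18.7 ± 13.2 (SD, n = 3) in WT-Veh and 16.0 ± 11.8 in KO-Veh, and 22.7 ± 13.3 in WT-Mem and 9.14 ± 6.3 in KO-Mem mice. Neither of its differences passed the threshold (adjusted p = 0.953 and 0.287). Tpcn2 and Mrgprf share no 31-base stretch with another gene.

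Counting all 11 measured genes beyond Shank2, 5 did not overlap between KO and WT mice in Veh-K/W and 5 in Mem-K/W, beside 20.4% and 26.2% of all genes. These were Gm26793, Bc1, Ccnd1, Tpcn2 and Mrgprf both times, the first 3 of them selected for this difference. The count ranged from 5 to 7 when any 1 mouse was left out of Veh-K/W and from 5 to 8 in Mem-K/W. At an unadjusted p under 0.05 the counts were 5 of 11 and 6 of 11, where 14.4% and 21.0% of all genes reached it. Of the 7 selected genes 3 were in each count, which the selection fixed, and of the 4 others 2 and 3 were. After adjustment 1 of the 7 selected genes (Gm26793) remained in Veh-K/W and 3 (Gm26793, Bc1 and Ccnd1) in Mem-K/W, where 0.0283% and 0.068% of all genes did, and nothing is read from this, since the genes were selected on these contrasts. Of the 4 others 0 passed the adjusted threshold in limma in either contrast. These few calls changed when single mice were left out: none remained without KO-Veh replicate 1 or 3 in Veh-K/W or without KO-Mem replicate 2 in Mem-K/W, 1 remained without KO-Mem replicate 1 or WT-Mem replicate 2, and 2 passed in Veh-K/W without WT-Veh replicate 3. The log2 differences themselves moved little. In Veh-K/W that of Gm26793 was 3.52 and 3.59 without KO-Veh replicate 1 and 3, against 3.55 with all mice. Without KO-Mem replicate 2 the Mem-K/W differences of Gm26793, Bc1 and Ccnd1 were 4.03, -1.55 and -0.97, against 4.09, -1.64 and -0.92. Of the 4 genes that were not selected on these contrasts, 2 did not overlap under each treatment, Tpcn2 and Mrgprf. So few genes cannot be compared closely with the 20.4% and 26.2% of all genes. Both directions occurred, with 2 genes higher and 3 lower among the 5. The vehicle and memantine contrasts share no mouse.

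The genes on the other side of Shank2 were not selected on any value. Within 1 Mb, 2 of 15 tested genes did not overlap in Veh-K/W and 3 of 16 in Mem-K/W, shares of 13.3% and 18.8% beside 20.4% and 26.2% of all genes. In limma 0 of them passed the adjusted threshold, and 1 and 3 had an unadjusted p under 0.05. The nearest tested gene on that side, Dhcr7, which encodes the last enzyme of cholesterol synthesis, was lower in KO mice without overlap under both treatments. Its log2 difference was -0.18 (SE 0.08, unadjusted p = 0.0416, adjusted p = 0.328, limma) in Veh-K/W. In Mem-K/W it was -0.45 (SE 0.12, unadjusted p = 0.00452, adjusted p = 0.109, limma), with an adjusted p of 0.0415 with all 12 mice in a single fit. Kcnq1ot1, a noncoding RNA of an imprinted cluster, had 0.12 (SE 0.10) and 0.43 (SE 0.16, adjusted p = 0.162). From 1 to 5 Mb the share without overlap was 25.9% of 81 genes and 36.2% of 80 genes, from 5 to 20 Mb it was 18.8% of 176 and 24.6% of 175, and on the other chromosomes it was 20.5% and 26.0%.

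**Figure D3:**
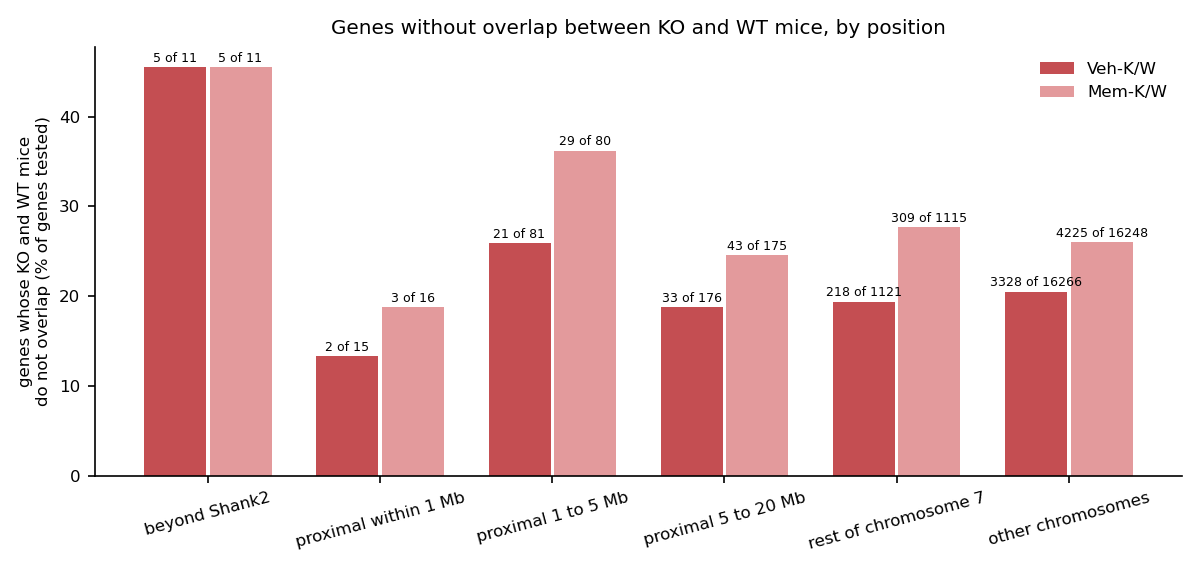
Share of tested genes whose KO and WT mice did not overlap (vertical axis, % of the genes tested) by position relative to Shank2 (horizontal axis), under vehicle (dark) and memantine (light), with the counts above the bars. The genes beyond Shank2 reach 45.5% in both contrasts, a share that includes 3 genes selected for this difference. The genes within 1 Mb on the other side reach 13.3% and 18.8%, and all genes tested 20.4% and 26.2%.

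Memantine was tested within each genotype, contrasts on which the 7 genes were not selected. In KO-M/V (KO-Mem against KO-Veh) 0 of the 7 passed the adjusted threshold, as for 0.0% of all genes, and 0 reached an unadjusted p under 0.05, where 8.88% of all genes did. In WT-M/V (WT-Mem against WT-Veh) 6 of the 7 could be tested, since Gm26793 had a mean under 10 in WT mice, and 0 of 6 passed either threshold, against 0.0114% and 3.97% of all genes. The genotype by treatment interaction, which asks whether the KO against WT difference itself changed with memantine and so is built from the differences the genes were selected on, gave 0 of 7 past either threshold, against 0.0% and 4.76% of all genes. KO-M/V and WT-M/V share their mice with the genotype contrasts above.

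Gm26793 had the largest interaction estimate of the 7 genes. It was 0.54 (SE 0.51, 95% interval -0.54 to 1.63, adjusted p = 0.951, limma), and rests on WT values of a few reads, with the gene past the filter only through its KO values. All 3 KO-Mem mice lay above all 3 KO-Veh mice, and 13.9% of all genes also did not overlap in KO-M/V. The KO-M/V log2 difference of Gm26793 was 0.23 (SE 0.20, unadjusted p = 0.279, adjusted p = 0.71, limma). For Ccnd1 the KO-M/V difference was -0.19 (SE 0.12, adjusted p = 0.623) and the WT-M/V difference was -0.03 (SE 0.10, adjusted p = 0.99). The interaction of Ccnd1 was -0.16, with a 95% interval of -0.53 to 0.20 (adjusted p = 0.953).

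Bc1 had 0.06 (SE 0.20, adjusted p = 0.94, limma) in KO-M/V and 0.29 (SE 0.25, adjusted p = 0.978) in WT-M/V, with an interaction of -0.23 whose interval reached from -1.0 to 0.54. The bounds for Bc1 therefore include a change of the genotype difference by 1 log2 unit. Cttn was bounded most closely, with an interaction of 0.07 between -0.13 and 0.26 and a KO-M/V difference of 0.11 (SE 0.06, adjusted p = 0.582). The interaction was -0.10 for Ppfia1, 0.12 for Fadd and -0.25 for Ano1, with adjusted p of 0.969, 0.976 and 0.956.

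**Figure D4:**
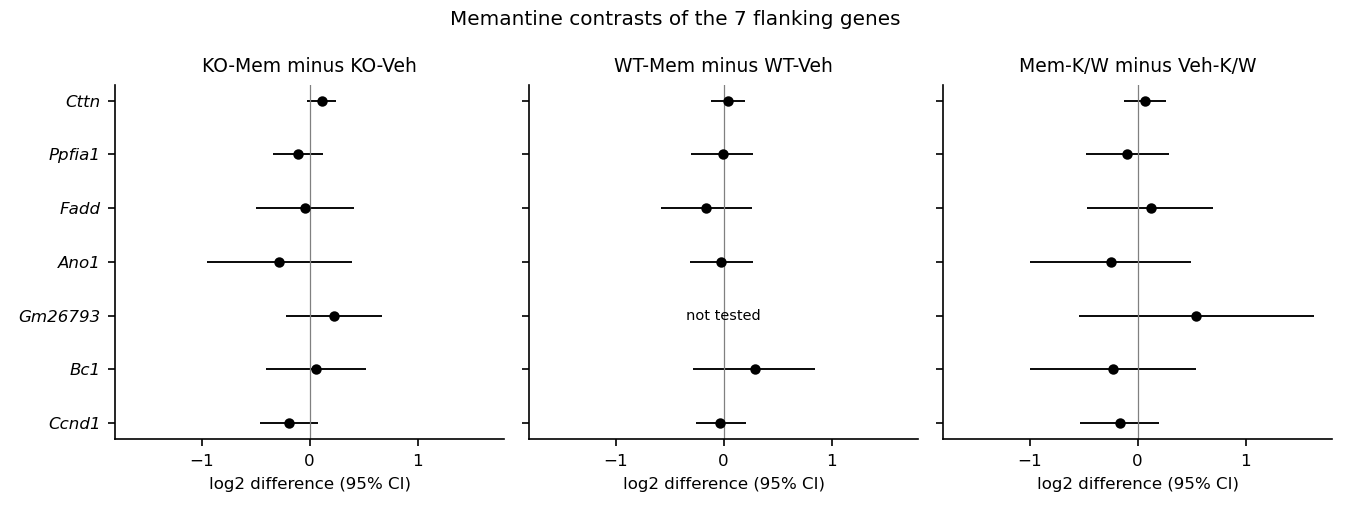
Log2 differences (horizontal axes) with 95% confidence intervals for the 7 genes: KO-Mem minus KO-Veh (left), WT-Mem minus WT-Veh (middle) and the change of the KO against WT difference with memantine (right). Every interval includes 0, and Gm26793, with few reads in WT mice, has the widest interval in the right panel.

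Levels were compared between the 7 genes per length, as normalized count per kb of merged exons. Over the 12 mice the median level was 1383 per kb for Bc1, 964 for Cttn, 230 for Ccnd1, 118 for Ppfia1, 22.0 for Ano1, 19.7 for Fadd and 8.61 for Gm26793. Ano1 (13.8 to 33.3 per kb) and Fadd (15.9 to 26.2 per kb) did not differ beyond their spread. The place of Bc1 depended on genotype: it was 1544 to 3108 per kb in WT-Veh and 2335 to 3816 in WT-Mem mice, above all values of Cttn. It was 789 to 1092 in KO-Veh and 803 to 1221 in KO-Mem mice. These ranges reached both below and above that of Cttn (890 to 1078 per kb). Ccnd1 in KO mice (131 to 198 per kb) came close to Ppfia1 (107 to 149 per kb) and overlapped it. Gm26793 was 0.374 to 1.42 per kb in WT mice and 15.8 to 21.5 per kb in KO mice, where it reached the levels of Ano1 and Fadd. For an RNA as short as Bc1 the level per length is the least certain, because few fragments can come from 168 bases.

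The 2 genes most like each of the 7 across the 12 mice, by the highest positive r, were on other chromosomes. So were most genes (16266 of the 17671 tested in Veh-K/W), and nothing is read from this. Likeness was the Pearson r of log2(value + 1) over 12 mice and 17655 genes, given as a description, since the mice share their group differences. The partners named were picked for the highest r among these genes, so high values are partly fixed by the choice. The r that chance alone would give was not tested. For Ccnd1 it was highest with Hspa8, the constitutive heat shock protein 70 on chromosome 9 (40800984 to 40810087), at r = 0.979, and r was 0.918 after the group means were taken out. Serinc2 was next at 0.971. Hspa8 was 51413 to 56034 in KO-Veh, 57268 to 66197 in WT-Veh, 47614 to 51436 in KO-Mem and 59966 to 61451 in WT-Mem mice. WT-Veh replicate 2 was the highest mouse for both genes and KO-Mem replicate 1 the lowest for both. The Hspa8 log2 difference was -0.20 (SE 0.07, adjusted p = 0.28, limma) in Veh-K/W and -0.29 (SE 0.05, adjusted p = 0.0884) in Mem-K/W, smaller than that of Ccnd1 and not past the threshold.

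**Figure D5:**
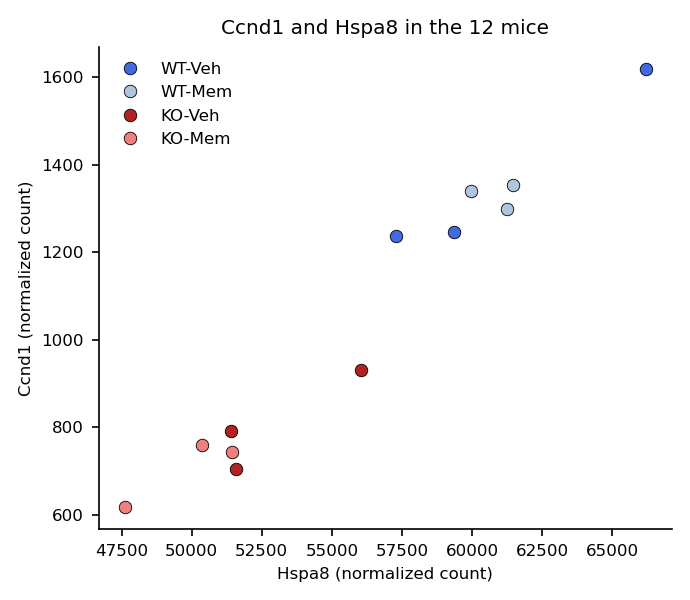
Normalized counts of Ccnd1 (vertical axis) against Hspa8 (horizontal axis) in the 12 mice, coloured by group. Both axes start above 0. The KO mice sit at the lower left, up to 931 for Ccnd1, and the WT mice at the upper right, from 1237.

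Bc1 was most like Rasd1 (r = 0.914, and 0.92 within groups), a gene for a small GTPase induced by glucocorticoids, and Ttc27 (0.905, and 0.488 within groups). Gm26793 was most like Wac (0.941) and Vstm2a (0.934), but within groups these r were 0.24 and 0.398, so that the likeness lay mainly between genotypes. The 4 of the 7 genes nearest to Shank2 differed little between groups. Closeness of their r over all mice and within groups was therefore largely fixed in advance. Cttn with Gtf2f1 (0.915, within groups 0.901) and Plat (0.913, 0.888), Ppfia1 with Gm43272 (0.907, 0.93) and Adam11 (0.883, 0.946), Fadd with Dhdds (0.847, 0.807) and Tigd3 (0.818, 0.792), and Ano1 with Gpr45 (0.859, 0.876) and Gm33378 (0.837, 0.923) varied together within groups about as closely as over all mice. Among the 7 genes, Gm26793 and Bc1 had r = -0.947 (-0.68 within groups), Gm26793 and Ccnd1 -0.938 (-0.169), and Bc1 and Ccnd1 0.876 (0.201). With Shank2 itself r was -0.969 for Gm26793 (0.619 within groups), 0.897 for Bc1 (-0.229) and 0.927 for Ccnd1 (-0.127).

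The functional partners of the 7 genes elsewhere in the genome were examined as fixed lists, which were chosen with earlier results of these data known. In the list of G1 cyclins, kinases and inhibitors Ccnd1 was left out, and so were the other selected genes in their lists. Of the other 19 tested genes 0 passed the adjusted threshold in limma in either contrast and 1 and 0 had an unadjusted p under 0.05, with median log2 differences of 0.03 and 0.05 against 0.0 over all genes. Ccne2, encoding a cyclin that acts after cyclin D1 in G1, had 100 ± 23.1 (SD, n = 3) in WT-Veh and 151 ± 17.9 in KO-Veh mice, a log2 difference of 0.61 (SE 0.18, adjusted p = 0.213, limma), and 0.25 in Mem-K/W. Rbl1, a relative of the retinoblastoma gene, had -0.47 and -0.16 (adjusted p = 0.403 and 0.7).

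Among proteins reported to bind BC1 RNA, 0 of 9 genes passed the threshold in either contrast (median 0.01 and 0.03), and 1 and 1 had an unadjusted p under 0.05. Eif4b, a translation initiation factor, had 5094 ± 77.2 (SD, n = 3) in WT-Mem and 6319 ± 728 in KO-Mem mice, a log2 difference of 0.30 (SE 0.08, adjusted p = 0.107, limma), and 0.08 in Veh-K/W. Pura, a nucleic acid-binding protein of dendritic RNA transport, had 0.20 and 0.16 (adjusted p = 0.325 and 0.559). In the cortactin and Arp2/3 list 0 of 17 genes passed (median 0.01 and 0.03), and 2 and 2 had an unadjusted p under 0.05. Arpc1b, an Arp2/3 subunit, had -0.22 and -0.37 (adjusted p = 0.276 and 0.141), and Hcls1, the cortactin relative of blood cells, had -0.29 and -0.35 (adjusted p = 0.507 and 0.292).

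The list of liprins and partners gave 0 of 15 genes (median 0.02 and 0.02), and 1 and 3 at an unadjusted p under 0.05, with -0.03 and -0.28 for Erc1, an active zone scaffold, and 0.15 and 0.10 for Kif1a, a synaptic vesicle kinesin. In death receptor signalling 0 of 10 genes passed in Veh-K/W and 1 of 10 in Mem-K/W (median -0.15 and -0.02), and 1 and 1 had an unadjusted p under 0.05. That gene, Tnfrsf25, encodes a death receptor and fell from 259 ± 52.3 (SD, n = 3) in WT-Mem to 72.0 ± 28.5 in KO-Mem mice, by 1.88 on the log2 scale (SE 0.26, adjusted p = 0.046, limma). It stood at the threshold, with an adjusted p from 0.0958 to 0.292 without any 1 of the mice other than KO-Mem replicate 3, 0.00154 without that mouse, and 0.0501 to 0.0531 with median centring, a minimum mean of 50 or the replicate number as a block. In Veh-K/W it was 253 ± 9.36 against 151 ± 66.9, a log2 difference of -0.84 (SE 0.26, adjusted p = 0.221). The study had already listed Tnfrsf25 among its top lowered genes in Mem-K/W, so its call here is no independent result. Tradd, an adaptor that binds such receptors, had -0.08 and -0.23 (adjusted p = 0.837 and 0.524).

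Of the other anoctamins 0 of 8 passed in either contrast (median -0.02 and -0.03), and 1 and 2 had an unadjusted p under 0.05. Ano2, a calcium-gated chloride channel like Ano1, had 0.71 (SE 0.25, adjusted p = 0.258, limma) in Veh-K/W and -0.02 in Mem-K/W, and Ano7 had -0.02 and 1.32 (adjusted p = 0.992 and 0.261) at mean values of 7.27 to 15.8. Of the Shank family, Shank1 had -0.12 and -0.13 and Shank3 had -0.07 and -0.12, and 0 of 2 passed the threshold or had an unadjusted p under 0.05 in either contrast.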

How the data were processed

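Groups and replicate numbers came from the sample titles. Nothing in the sources says that the 3 mice of a group shared a litter, and brains were not pooled. The deposited values are a normalized signal, that is, gene-level read counts that the authors estimated with Salmon (1.1.0) on GRCm38 with GC bias correction, imported with tximport and normalized with DESeq2. The submitters' processing notes name R 3.6.2 and DESeq2 1.26.0. The annotation release is not given in the sources used here. The values are neither whole nor log transformed, whole reads could not be recovered, and edgeR and DESeq2 were therefore not run here. The sum per mouse was 30373849 to 31199251 and is set by the normalization, not by depth.

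The members and the gene lists were chosen with earlier results of these data known. Symbols, positions and transcripts came from GENCODE M21 (GRCm38), which held 19295 of the 19312 genes. Comparisons used limma 3.58.1 in R 4.3.3 with a mean-dependent prior on log2(value + 1), for genes with a mean of at least 10 over the mice fitted, on the 6 mice of each contrast or on all 12 for the interaction, two-sided, with Benjamini-Hochberg adjustment over all genes tested and a threshold of 0.05. Fold changes of low genes are understated on this scale. The procedure was tested on simulated data. Genes named are the 7 members, Shank2, the measured genes beyond it and within 1 Mb on its other side (the latter mainly as counts), the 2 genes most like each member, and in each list the genes past the threshold and the 2 with the largest mean difference. For shared bases, all 31-base words of each gene's annotated transcripts were looked up in the transcripts of all other genes on both strands.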

Additional observations from a re-analysis of the deposited data

How the results depend on the processing

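Under another added constant, other filters, median centring, a replicate block, a single fit of all 12 mice and with mice left out, the genotype differences of the 7 genes kept their direction, except those of Ppfia1 (-0.07 to 0.17) and Ano1 (-0.16 to 0.47) in Veh-K/W with 1 mouse left out, and 2 moved beyond the spread of the mice, both of Gm26793, to 2.66 in Veh-K/W and to 3.00 in Mem-K/W with 5 added before the log. A minimum mean of 50 left Gm26793 out. Leaving out 1 mouse at a time gave 3.38 to 3.70 and 3.77 to 4.31 for Gm26793, -1.73 to -1.23 and -1.84 to -1.45 for Bc1, and -0.86 to -0.63 and -0.97 to -0.82 for Ccnd1. It turned the sign of some small memantine differences: in KO-M/V Fadd ranged from -0.18 to 0.11 and Bc1 from -0.14 to 0.20; in WT-M/V Ppfia1 from -0.11 to 0.13, Ano1 from -0.08 to 0.02, Bc1 from -0.03 to 0.47 and Ccnd1 from -0.09 to 0.10; and in the interaction Fadd from -0.02 to 0.27 and Bc1 from -0.42 to 0.09.

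Counts over all genes moved far more than the values of the 7. In Veh-K/W 5 genes passed the threshold, 3 with 5 added, 2 with a minimum mean of 50, 2 with all 12 mice in a single fit, and 2 to 53 with 1 mouse left out (53 without KO-Veh replicate 2). In Mem-K/W it was 12, against 636 with all 12 mice and 2 to 1911 with 1 mouse left out (1911 without KO-Mem replicate 3). In WT-M/V it was 2, against 1, 0 and 0 under those 3 settings and 1 to 3, in KO-M/V 0 against 0 to 97 (97 without KO-Mem replicate 3), and in the interaction 0 against 0 to 4. Beyond Shank2, 1 gene passed in Veh-K/W and 3 in Mem-K/W, all of them selected on these contrasts, so nothing is read from these counts. At an unadjusted p they were 5 and 6, and with a minimum mean of 50 the Veh-K/W count was 0. A check chosen after seeing the data gave 0 to 2 and 0 to 3 with 1 mouse left out, and 1 and 4 with all 12 mice. The causes were not tested. Replicate numbers did not pair the mice (correlations of same-numbered deviations from -0.193 to 0.083), and with the replicate number as a block 2 genes passed in Veh-K/W, 4 in Mem-K/W and 1 in WT-M/V.

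Depth limits Gm26793 most, since its WT values are normalized counts of about 1 to 4. With 3 mice a group, the interaction intervals of Gm26793, Bc1, Ano1, Fadd and Ccnd1 reach 0.5 log2 units or more in size, and those of Cttn and Ppfia1 do not.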
